A study of Homo sapiens with 12 samples.

Results

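The genes described here are the insulin-like growth factor (IGF) ligands *IGF1* and *IGF2*, the receptor *IGF1R*, and the IGF-binding proteins *IGFBP1* to *IGFBP7*. They were taken by gene symbol from a table of 28901 named genes, and all 10 symbols had a row. They were measured by RNA-seq in 12 libraries of adipocytes made from the immortalized human adipose stromal cell line ASC52telo hTERT and harvested after 14 days of differentiation. The 4 groups of 3 libraries were scramble shRNA, scramble shRNA with LPS, linc-ADAIN shRNA (KD) and linc-ADAIN shRNA with LPS (KD with LPS), where LPS, a bacterial cell wall component that triggers inflammatory signaling, was given at 100 ng/mL for 4 h. linc-ADAIN is a long intergenic non-coding RNA of adipocytes, and the design asks how its knockdown (KD), LPS and their combination change adipocyte mRNA. In all 4 groups the shRNA was delivered by lentivirus, and cells positive for the green marker of the vector were sorted. Each target had 1 shRNA in 1 cell line. All groups were differentiated with rosiglitazone and isobutylmethylxanthine and then held in medium with insulin at 1.7 µM and dexamethasone at 1 µM, so insulin, which also acts on the IGF axis, was present throughout. linc-ADAIN was looked up by gene symbol and had no row, so the knockdown could not be checked from these counts.

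IGF-I and IGF-II are secreted growth factors that signal mainly through the receptor encoded by *IGF1R*, which activates the PI3K and AKT pathway through IRS adaptor proteins. Outside the cell most IGF is held by IGFBPs, which carry it, lengthen its life and limit its access to the receptor. IGFBPs are in turn cut by proteases such as pappalysins, which free the ligand, and stanniocalcins block the pappalysins. In adipose tissue, precursor cells and adipocytes secrete IGF-I and several IGFBPs, and IGF signaling is known to promote adipocyte differentiation.

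Counts on named genes totalled 28.4 to 53.8 M (1 M is 1e6 counts) per library, and the correlation of log2 counts per 1e6 (CPM) between libraries of a group was 0.971 to 0.986. CPM here is scaled to the effective library size from edgeR's TMM method. The 8 adipocyte markers summed to 2797 to 3919 CPM in scramble libraries, 3328 to 3768 with LPS, 558 to 1653 in KD and 467 to 1087 in KD with LPS, and 5 of 8 were lower in KD without LPS and 6 of 8 with LPS. Of these, *LEP* and *LPL* were at 2.36 CPM or less in every library, whereas *ADIPOQ* and *FABP4* were well detected in all 12. The 8 stromal and preadipocyte markers summed to 5016 to 6024, 4757 to 5370, 6327 to 7200 and 7368 to 8200 CPM in the same order, with *DLK1* at 0. Called genes of this list went both ways, 2 higher and 3 lower in each KD comparison, with medians of -0.90 without LPS and -0.18 with LPS. *DCN* was the abundant rising gene, at 2127 to 3066 CPM in scramble and 4504 to 5328 CPM in KD without LPS, while *THY1*, *ENG* and *PDGFRB* were lower in both comparisons. Leukocyte markers summed to 57.2 to 60.5, 60.7 to 71.7, 88.2 to 117 and 78.8 to 107 CPM, with 1 gene higher and 1 lower in each KD comparison. *CD163* rose from at most 5.38 CPM in scramble to at least 55.1 CPM in KD without LPS. *CD68* fell from 50.7 to 56.2 CPM in scramble to 28.4 to 32.5 CPM in KD without LPS, while *AIF1* was at 0 and *PTPRC* at 0.316 CPM or less. Endothelial markers summed to 27.1 CPM or less and smooth muscle markers to 54.2 CPM or less, and both sums were lowest in the KD groups. For smooth muscle, 0 genes were called higher and 2 lower in each KD comparison. For endothelium, 0 were higher and 2 lower without LPS, and 1 was higher and 3 lower with LPS. The rising gene was *KDR*, at 0.198 CPM or less in scramble with LPS and 2.02 to 3.94 CPM in KD with LPS. For all genes tested, 12.1% were called higher and 15.1% lower in KD without LPS, and 12.7% and 14.2% with LPS. Whether these marker differences had a part in the differences of the IGF genes was not tested, and in bulk RNA fewer cells of a type and less RNA per cell cannot be told apart. All 8 genes of the LPS check, among them *CXCL8* and *IL6*, rose at least 2-fold with LPS in both shRNA groups.

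Levels of different genes were compared as CPM per kb of the longest coding transcript. In scramble libraries *IGFBP4* was the most abundant member at 1066 ± 310 CPM per kb (SD, n = 3 here and below). *IGFBP7* at 64.9 ± 10.04 and *IGFBP3* at 62.0 ± 7.51 followed, with overlapping ranges, ahead of *IGFBP6* at 47.4 ± 2.27 and *IGFBP5* at 30.1 ± 9.04. *IGF1* at 13.5 ± 2.84 and *IGFBP2* at 9.10 ± 5.61 overlapped as well. *IGF2* was at 0.817 ± 0.174 and *IGF1R* at 0.226 ± 0.083. *IGFBP1*, the binding protein best known from liver, had 0 counts in all 12 libraries, and 3 counts in a library would be 0.056 to 0.105 CPM. It was not tested, so 9 of 10 members passed the filter of at least 10 counts in total.

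Without LPS, KD lowered *IGFBP2*, *IGFBP3*, *IGFBP4*, *IGFBP5* and *IGFBP6* and raised *IGFBP7*, while *IGF1*, *IGF2* and *IGF1R* did not pass the test. Of the 9 tested members, 5 were lower and 1 was higher by edgeR's quasi-likelihood test at a Benjamini-Hochberg adjusted p under 0.05. Of all 16217 genes tested, 15.1% were lower and 12.1% were higher. The members, and the gene lists below, were chosen with earlier results of these data known. Shares of all genes beside their counts are therefore a description and no test. With LPS, 6 members were lower and 2 were higher, against 14.2% lower and 12.7% higher of 15981 genes. The median log2 fold change of the members was -0.36 without LPS and -0.54 with LPS, and over all genes it was 0.02 and 0.03. In both comparisons 2 members, *IGFBP2* and *IGFBP6*, were also at least 2-fold lower, where 7.77% of all genes without LPS and 8.48% with LPS passed this threshold in either direction. Scaling by library size alone moved the median of all genes to 0.13 and 0.11, and moved the higher share of called genes from 44.5% to 61.4% without LPS and from 47.2% to 59.2% with LPS. With 3 libraries against 3, an exact permutation test cannot go below p = 0.1. The labels do not say that the 3 libraries came from separate cultures. The paper's figure legends give its KD RNA-seq as N = 1 in triplicate. The p-values therefore measure the spread among these libraries, which may be technical.

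**Figure D1:**
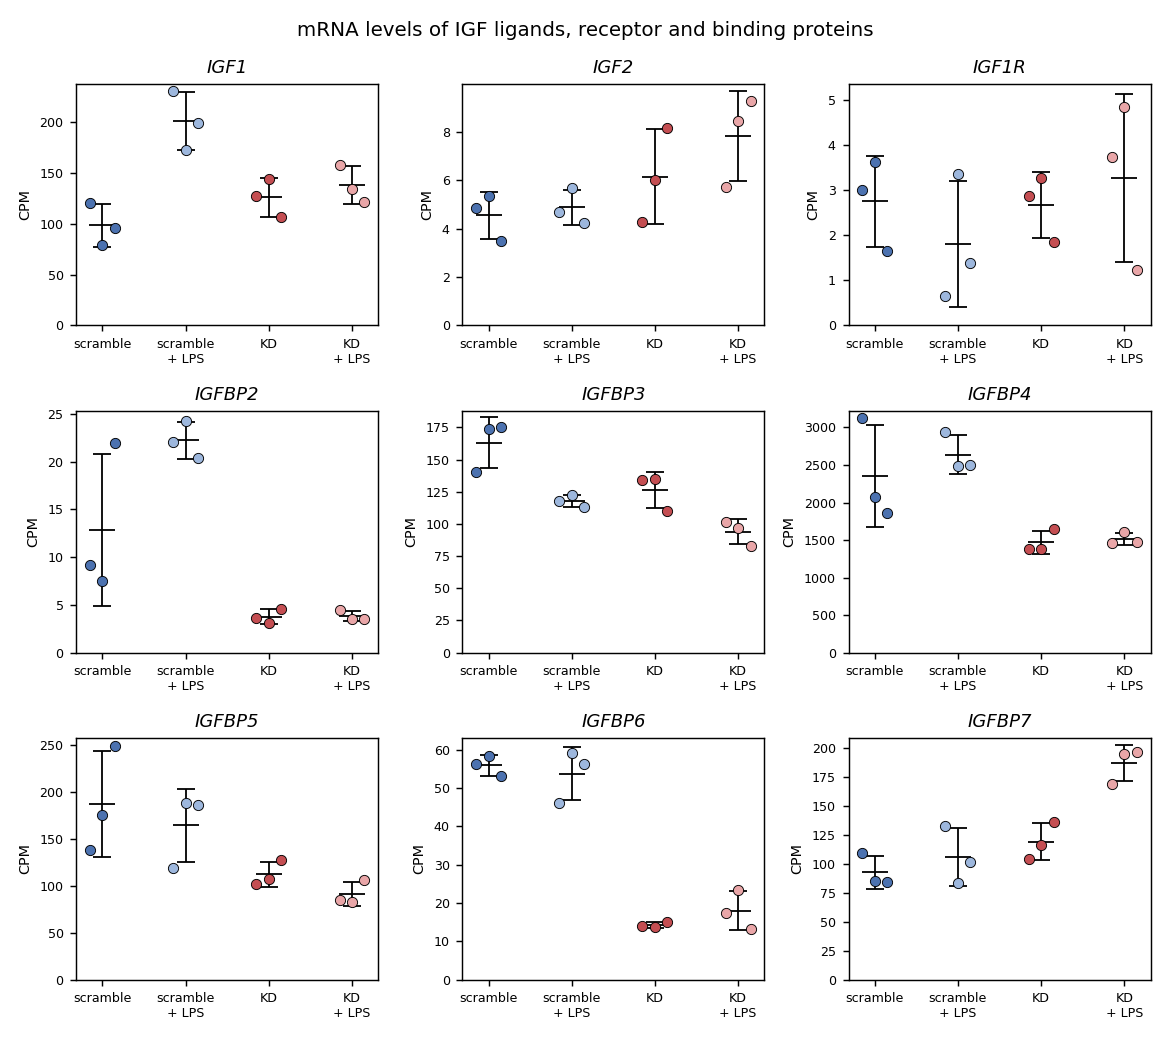
CPM of the 9 detected members in each of the 12 libraries (points), by group on the horizontal axis, with the mean and SD of 3 libraries. *IGFBP2* and *IGFBP6* were at most at 4.62 and 23.4 CPM in the KD libraries, with or without LPS, and *IGF1* was highest in scramble with LPS.

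*IGFBP6* encodes a binding protein with a strong preference for IGF-II and lies on chromosome 12 (chr12:53097436-53102345, plus strand, GRCh38). It was at 56.3, 58.3 and 53.0 CPM in scramble and at 46.0, 59.1 and 56.2 CPM in scramble with LPS. In KD it was at 13.9, 13.6 and 15.2 CPM, and in KD with LPS at 17.4, 23.4 and 13.3 CPM. All 6 KD libraries lay below all 6 scramble libraries. The log2 fold change was -1.97 ± 0.09 (SE, adjusted p = 9.7e-08) without LPS and -1.57 ± 0.17 (adjusted p = 1.2e-05) with LPS.

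*IGFBP2* encodes a binding protein that circulates at levels tied to metabolic state, and lies on chromosome 2 (chr2:216632828-216664436, plus strand). It was at 9.15, 7.47 and 21.98 CPM in scramble and at 22.1, 24.3 and 20.4 CPM in scramble with LPS. In KD it was at 3.60, 3.10 and 4.62 CPM, and in KD with LPS at 4.41, 3.55 and 3.51 CPM. Scramble replicate 3 stood apart from the other two scramble libraries and lay in the range of the LPS-treated ones. Even so, every KD library was below every scramble library. The log2 fold change was -1.77 ± 0.35 (adjusted p = 0.0028) without LPS and -2.54 ± 0.16 (adjusted p = 5.3e-08) with LPS. Without scramble replicate 3 the first of these was -1.15 (adjusted p = 0.0051).

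*IGFBP5*, on the minus strand of the same chromosome (chr2:216672105-216695549), faces *IGFBP2* tail to tail across a gap of 7668 bases, and its protein binds matrix as well as IGFs. It was at 138, 176 and 249 CPM in scramble, 120, 188 and 186 CPM in scramble with LPS, 102, 108 and 128 CPM in KD, and 85.1, 82.4 and 106 CPM in KD with LPS. The KD groups did not overlap their scramble controls. The log2 fold change was -0.74 ± 0.17 (adjusted p = 0.0074) without LPS and -0.85 ± 0.15 (adjusted p = 0.00083) with LPS. Without scramble replicate 3, the fold change of *IGFBP5* without LPS was -0.49 (adjusted p = 0.018).

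*IGFBP4*, the most abundant member, encodes an IGF inhibitor that pappalysin-1 cleaves, and lies at chr17:40443450-40457725 on the plus strand. It was at 3131, 2069 and 1854 CPM in scramble, 2935, 2481 and 2493 CPM in scramble with LPS, 1377, 1385 and 1648 CPM in KD, and 1454, 1605 and 1475 CPM in KD with LPS. Scramble replicate 1 was the highest library, and no KD library reached the lowest scramble library. The log2 fold change was -0.67 ± 0.16 (adjusted p = 0.0077) without LPS and -0.80 ± 0.08 (adjusted p = 4.5e-06) with LPS. Without scramble replicate 1, it was -0.41 (adjusted p = 0.0081) without LPS.

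*IGFBP3* encodes the main IGF carrier of blood and lies at chr7:45912245-45921874 on the minus strand, 18584 bases from *IGFBP1*. It was at 140, 173 and 176 CPM in scramble, 118, 123 and 113 CPM in scramble with LPS, 134, 135 and 110 CPM in KD, and 102, 96.9 and 83.1 CPM in KD with LPS. Each KD group lay below its control without overlap, and the estimates were smaller than those of the other four falling members. The log2 fold change was -0.36 ± 0.11 (adjusted p = 0.025) without LPS and -0.33 ± 0.09 (adjusted p = 0.015) with LPS. Scaling by library size alone gave -0.26 (adjusted p = 0.094) and -0.24 (adjusted p = 0.069). The call without LPS was also lost without scramble replicate 2 (-0.32, adjusted p = 0.105), scramble replicate 3 (-0.32, adjusted p = 0.086) or KD replicate 3 (-0.27, adjusted p = 0.090), and the call with LPS without KD with LPS replicate 3 (-0.25, adjusted p = 0.075).

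*IGFBP7*, a relative of the other IGFBPs that binds IGFs weakly and is found in matrix, lies at chr4:57030773-57110385 on the minus strand and moved the other way. It was at 109, 84.8 and 83.8 CPM in scramble, 132, 83.2 and 101 CPM in scramble with LPS, 104, 116 and 136 CPM in KD, and 168, 195 and 196 CPM in KD with LPS. The KD and scramble groups overlapped without LPS and did not with LPS. The log2 fold change was 0.36 ± 0.12 (adjusted p = 0.041) without LPS and 0.82 ± 0.14 (adjusted p = 0.00049) with LPS. The first call was lost without scramble replicate 2 (0.30, adjusted p = 0.158), scramble replicate 3 (0.29, adjusted p = 0.166), KD replicate 2 (0.37, adjusted p = 0.078) or KD replicate 3 (0.26, adjusted p = 0.146), and in a fit over all 12 libraries (0.36, adjusted p = 0.074).

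**Figure D2:**
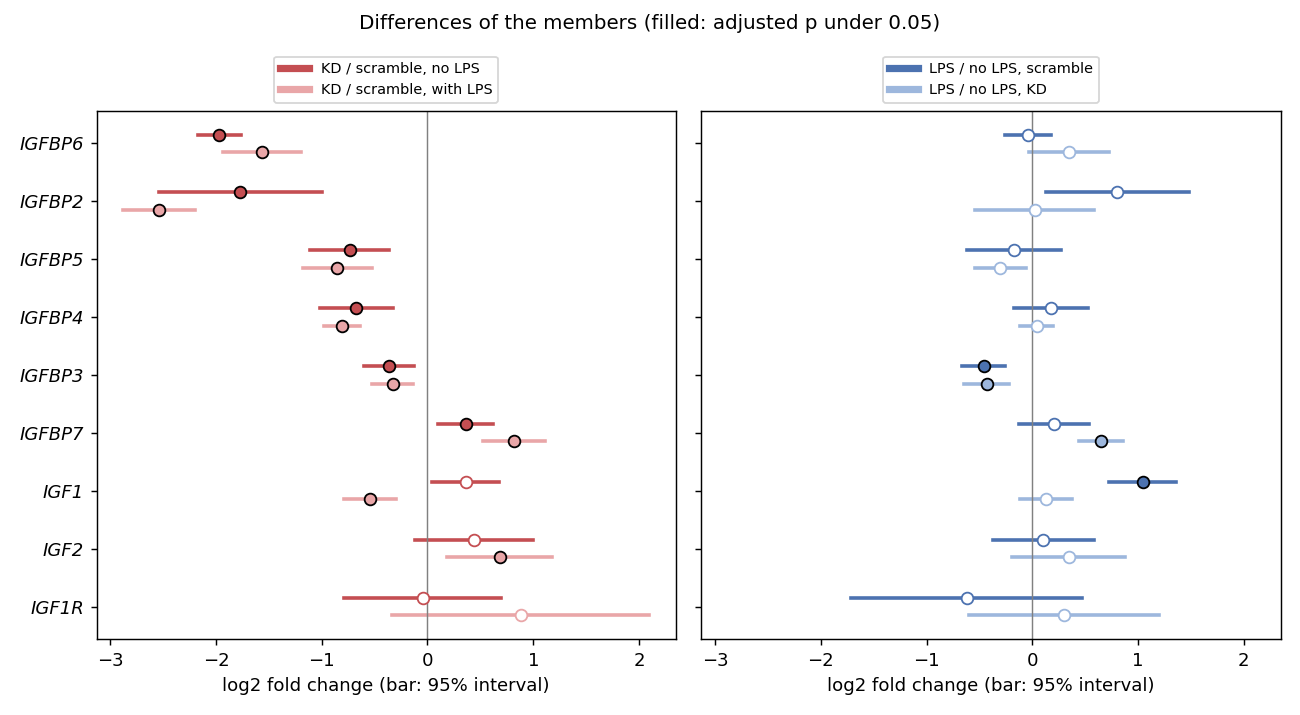
Log2 fold change (horizontal axis) of each tested member (vertical axis) for KD against scramble (left) and LPS against no LPS (right), with bars for the 95% interval of edgeR's fit and filled points for an adjusted p under 0.05. *IGFBP2* to *IGFBP6* lie left of 0 in both KD comparisons and *IGFBP7* lies right of 0.

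The promoter sequences of the falling binding proteins are shown because their genes moved in the same direction. RefSeq windows were available for 7 of the 10 members, and *IGF2*, *IGFBP1* and *IGFBP7* had no entry. The last 100 bases before the start site are given 5′ to 3′ on the strand of the gene (GRCh38.p14) for the falling members whose window held no annotated exon, which leaves out *IGFBP6*. Capitals mark matches on either strand to GGGCGG (GC box) or TATANA (TATA box), which overlap each other in *IGFBP3*.
*IGFBP2*, chr2:216633320-216633419, plus strand: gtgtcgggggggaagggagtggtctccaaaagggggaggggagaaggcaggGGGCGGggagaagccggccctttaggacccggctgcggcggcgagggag
*IGFBP3*, chr7:45921273-45921372, minus strand: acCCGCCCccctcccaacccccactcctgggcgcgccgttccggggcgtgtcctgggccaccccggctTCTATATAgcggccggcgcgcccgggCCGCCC
*IGFBP4*, chr17:40443350-40443449, plus strand: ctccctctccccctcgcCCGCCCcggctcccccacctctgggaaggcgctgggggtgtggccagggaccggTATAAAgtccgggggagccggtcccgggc
*IGFBP5*, chr2:216695550-216695649, minus strand: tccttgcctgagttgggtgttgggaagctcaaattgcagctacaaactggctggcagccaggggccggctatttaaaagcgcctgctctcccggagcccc
In the 250 bases before the start, TATANA was found in *IGFBP3* and *IGFBP4*, 2 of the 7 members, and in 17.7% of 35116 RefSeq promoters. GGGCGG was found in 5 of 7, namely *IGF1R*, *IGFBP2*, *IGFBP3*, *IGFBP4* and *IGFBP6*, and in 42.6% of all promoters. Those 5 windows were 61.2% to 81.2% G and C, against a median of 58% over all promoters. The comparison was not matched for this content. The kappaB motif, searched on both strands, was in 0 of 7 and in 1.73% of all promoters. The *IGF1* window counted here starts 1184 bases from the start of that gene's canonical transcript. For *IGFBP6*, also counted, the last 100 bases before the start are annotated as exon. A match is a description of letters and no evidence of binding.

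*IGF1*, which encodes the main growth factor ligand of the receptor (chr12:102395874-102481744, minus strand), was the one member called higher with LPS in scramble. It was at 120, 79.1 and 95.8 CPM in scramble and at 230, 173 and 199 CPM in scramble with LPS. In KD it was at 127, 144 and 106 CPM, and in KD with LPS at 158, 135 and 122 CPM. All LPS-treated scramble libraries lay above all untreated ones, whereas the KD groups overlapped. LPS raised *IGF1* in scramble by 1.04 ± 0.14 on the log2 scale (adjusted p = 0.00049), and in KD the value was 0.13 ± 0.11 (adjusted p = 0.555, 95% interval -0.11 to 0.38). KD against scramble gave 0.36 ± 0.14 (adjusted p = 0.089) without LPS and -0.54 ± 0.12 (adjusted p = 0.0030) with LPS. The first of these passed the threshold without scramble replicate 1 (0.53, adjusted p = 0.014) or KD replicate 3 (0.47, adjusted p = 0.040), by DESeq2 (0.37, adjusted p = 0.035), with scaling by library size alone (0.47, adjusted p = 0.032) and without a filter on low counts (0.36, adjusted p = 0.027).

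The difference between both LPS responses was tested as the interaction of KD with LPS in all 12 libraries. *IGF1* was the only one of 9 members called, with a log2 value of -0.90 ± 0.20 (adjusted p = 0.035, 95% interval -1.33 to -0.47). Of 17173 genes, 0.332% were lower and 0.943% were higher in this test. The call was lost in 8 of the 12 fits that left out 1 library, where the value ranged from -1.07 to -0.76 over all 12 fits and the adjusted p reached 0.107. Those were the fits without scramble replicate 2 (-0.76, adjusted p = 0.107) or 3 (-0.88, adjusted p = 0.061), scramble with LPS replicate 1 (-0.79, adjusted p = 0.085) or 3 (-0.90, adjusted p = 0.065), KD replicate 1 (-0.89, adjusted p = 0.086) or 2 (-0.80, adjusted p = 0.084), and KD with LPS replicate 2 (-0.88, adjusted p = 0.090) or 3 (-0.81, adjusted p = 0.107). The *IGFBP2* interaction was -0.77 ± 0.42 (adjusted p = 0.53), and without scramble replicate 3 it was -1.40 (adjusted p = 0.016).

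In scramble, LPS called 1 member higher, *IGF1*, and 1 lower, *IGFBP3*, against 5.9% of 15920 genes higher and 8.38% lower. *IGF1* was the only one of the 9 to reach 2-fold, as did 2.68% of all genes in either direction. In KD, LPS called 1 member higher, *IGFBP7*, and 1 lower, *IGFBP3*, against 5.32% of 16169 genes higher and 6.03% lower. None of the 9 reached 2-fold there, against 2.25% of all genes. Scaling by library size alone moved the higher share of called genes in KD from 46.9% to 35.2%. The members' median was 0.11 in scramble and 0.13 in KD, and that of all genes was 0.02 and 0.01.

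*IGFBP3* fell with LPS by 0.46 ± 0.09 on the log2 scale in scramble (adjusted p = 0.0065) and by 0.43 ± 0.10 in KD (adjusted p = 0.011), without overlap in either. The call in KD was lost without KD replicate 1 (-0.39, adjusted p = 0.050) or KD with LPS replicate 3 (-0.35, adjusted p = 0.068). *IGFBP7* rose with LPS in KD by 0.65 ± 0.10 (adjusted p = 0.00043) without overlap, and in scramble its value was 0.20 ± 0.15 (adjusted p = 0.44). Its interaction was 0.46 ± 0.20 (adjusted p = 0.39), so the responses were not shown to differ. *IGFBP2* had a value of 0.80 ± 0.31 in scramble (adjusted p = 0.115), which turned to 1.43 (adjusted p = 0.00025) without scramble replicate 3. *IGFBP4* in scramble was 0.18 ± 0.16 (adjusted p = 0.54), and 0.44 (adjusted p = 0.018) without scramble replicate 1. *IGFBP5* in KD was -0.30 ± 0.11 (adjusted p = 0.106), and -0.43 (adjusted p = 0.030) without KD with LPS replicate 3.

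*IGF2*, which encodes the second ligand (chr11:2129112-2158391, minus strand), was low, with 149 to 393 counts per library. It was at 4.84, 5.36 and 3.48 CPM in scramble, 4.70, 5.68 and 4.24 CPM in scramble with LPS, 4.29, 5.996 and 8.17 CPM in KD, and 5.71, 8.45 and 9.28 CPM in KD with LPS. KD with LPS lay just above scramble with LPS in every library, and the groups without LPS overlapped. KD raised it with LPS by 0.68 ± 0.23 on the log2 scale (adjusted p = 0.043), and without LPS the value was 0.44 ± 0.26 (adjusted p = 0.24). The call was lost without scramble with LPS replicate 1 (0.66, adjusted p = 0.084) or 3 (0.59, adjusted p = 0.147), without KD with LPS replicate 2 (0.61, adjusted p = 0.133) or 3 (0.54, adjusted p = 0.162), and in a fit over all 12 libraries (0.68, adjusted p = 0.059). The overlapping readthrough gene *INS-IGF2* and *INS* had 0 counts in all libraries, and the split of shared reads between *IGF2* and *INS-IGF2* is uncertain.

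*IGF1R*, which encodes the receptor tyrosine kinase (chr15:98648539-98964530, plus strand), had 26 to 226 counts per library. It was at 3.00, 3.63 and 1.65 CPM in scramble, 0.665, 3.37 and 1.38 CPM in scramble with LPS, 2.88, 3.27 and 1.85 CPM in KD, and 3.73, 4.86 and 1.23 CPM in KD with LPS. All groups overlapped. The 95% interval of the KD difference was -0.79 to 0.69 without LPS and -0.34 to 2.10 with LPS, so differences within these intervals were not resolved with these libraries.

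The IGFBP mRNAs were also added up as CPM per kb, a relative measure that takes the longest coding transcript as the length of each gene. Neither this sum nor the ratio below was computed with other lengths. The sum was 1280 ± 303 in scramble, 1402 ± 121 in scramble with LPS, 831 ± 78.6 in KD and 884 ± 46.7 in KD with LPS. *IGFBP4* made up most of it in every library, with a mean share of 82.7%, 85.2%, 80.2% and 77.5% in the same order. The share of *IGFBP7* was 5.13%, 5.24%, 9.997% and 14.8%, and that of *IGFBP6* was 3.83%, 3.30%, 1.46% and 1.72%. The ratio of the IGFBP sum to *IGF1* on the same scale was 81.02 to 106 in scramble, 48.7 to 55.9 in scramble with LPS, 39.9 to 63.1 in KD and 39.0 to 52.0 in KD with LPS. The scramble libraries without LPS stood above all 9 others in this ratio, which is a description of mRNA and has no test.

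**Figure D3:**
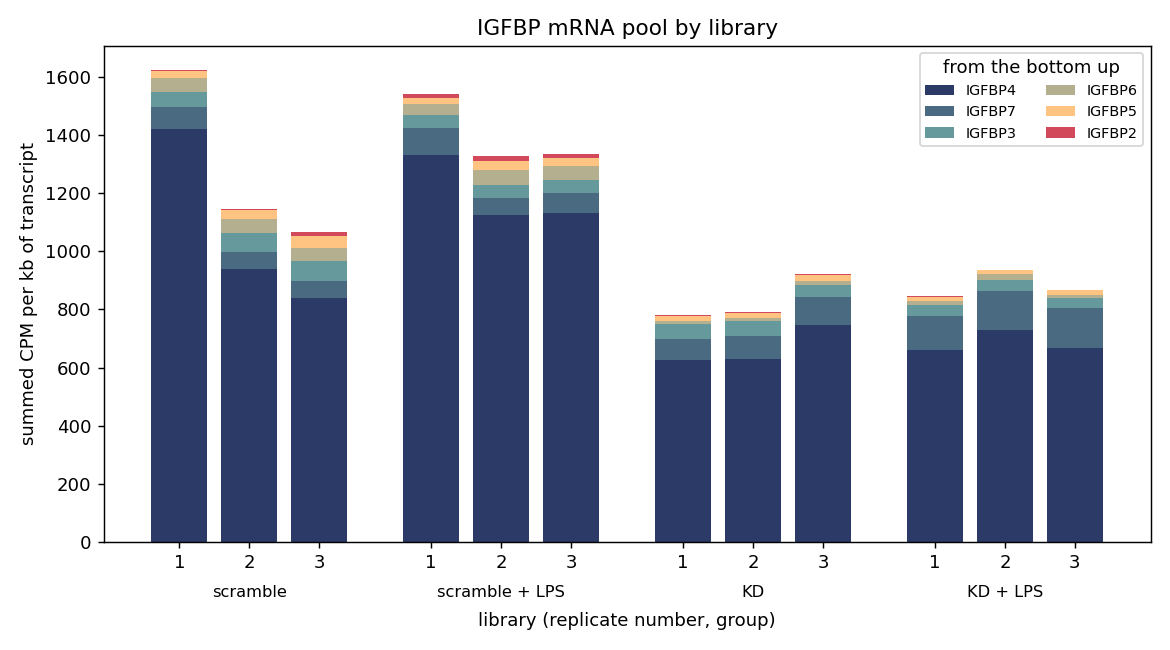
Summed CPM per kb of transcript of *IGFBP2* to *IGFBP7* (vertical axis) in each of the 12 libraries (horizontal axis), stacked by gene. The 6 KD libraries sum to between 779 and 937, below all 6 scramble libraries, and *IGFBP4* is the tallest segment throughout.

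Genes that cut or guard IGFBPs changed with KD in both directions. Of 9 listed genes 7 passed the filter on low counts, with 2 called higher and 5 called lower by each KD comparison, with medians of -0.61 and -0.76. Of all genes, 12.1% were higher and 15.1% lower without LPS, and 12.7% and 14.2% with LPS, with medians of 0.02 and 0.03. *PAPPA2*, a pappalysin that cleaves IGFBP3 and IGFBP5, was at 30.5, 44.1 and 48.3 CPM in scramble and 39.8, 52.2 and 53.6 CPM in scramble with LPS, and at 7.49, 6.39 and 3.63 CPM in KD and 5.52, 5.05 and 3.76 CPM in KD with LPS. It was lower in every KD library, by a log2 fold change of -2.81 ± 0.24 (adjusted p = 4.6e-06) and -3.34 ± 0.16 (adjusted p = 6.8e-09) with LPS. *STC2*, a stanniocalcin that inhibits pappalysins, was at 22.2, 18.5 and 15.4 CPM in scramble and 10.5, 13.0 and 9.96 CPM in scramble with LPS, and at 72.7, 87.3 and 98.9 CPM in KD and 85.5, 114 and 104 CPM in KD with LPS. It was higher in every KD library, by 2.21 ± 0.14 (adjusted p = 5.3e-07) and 3.19 ± 0.13 (adjusted p = 2.2e-09) with LPS.

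*STC1*, the other stanniocalcin, rose by 0.72 ± 0.15 (adjusted p = 0.0041) and 0.81 ± 0.08 with LPS (adjusted p = 3.8e-06). *ADAM12*, a metalloprotease that cleaves IGFBP3 and IGFBP5, fell, with log2 values of -1.34 ± 0.13 (adjusted p = 1.7e-05) and -1.70 ± 0.11 with LPS (adjusted p = 1.0e-07). *HTRA1*, a serine protease, was at -0.44 ± 0.09 (adjusted p = 0.0040) and -0.76 ± 0.08 with LPS (adjusted p = 1.2e-05). *PAPPA*, the pappalysin that cleaves IGFBP4, was at 217, 153 and 167 CPM in scramble and 109, 123 and 114 CPM in KD, a log2 fold change of -0.63 ± 0.12 (adjusted p = 0.0017). The IGFBP relative *KAZALD1* fell in KD with LPS, with -1.002 ± 0.19 (adjusted p = 0.0015). Without LPS its groups overlapped, and its value of -0.61 ± 0.20 (adjusted p = 0.040), named after it was seen, lost the call without scramble replicate 1 (-0.46, adjusted p = 0.157) or 2 (-0.55, adjusted p = 0.132), without KD replicate 1 (-0.54, adjusted p = 0.106) or 2 (-0.51, adjusted p = 0.125), and with scaling by library size alone (-0.50, adjusted p = 0.083). *IGFALS* and *IGFBPL1* had at most 6 counts in any library and were not tested in these comparisons.

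**Figure D4:**
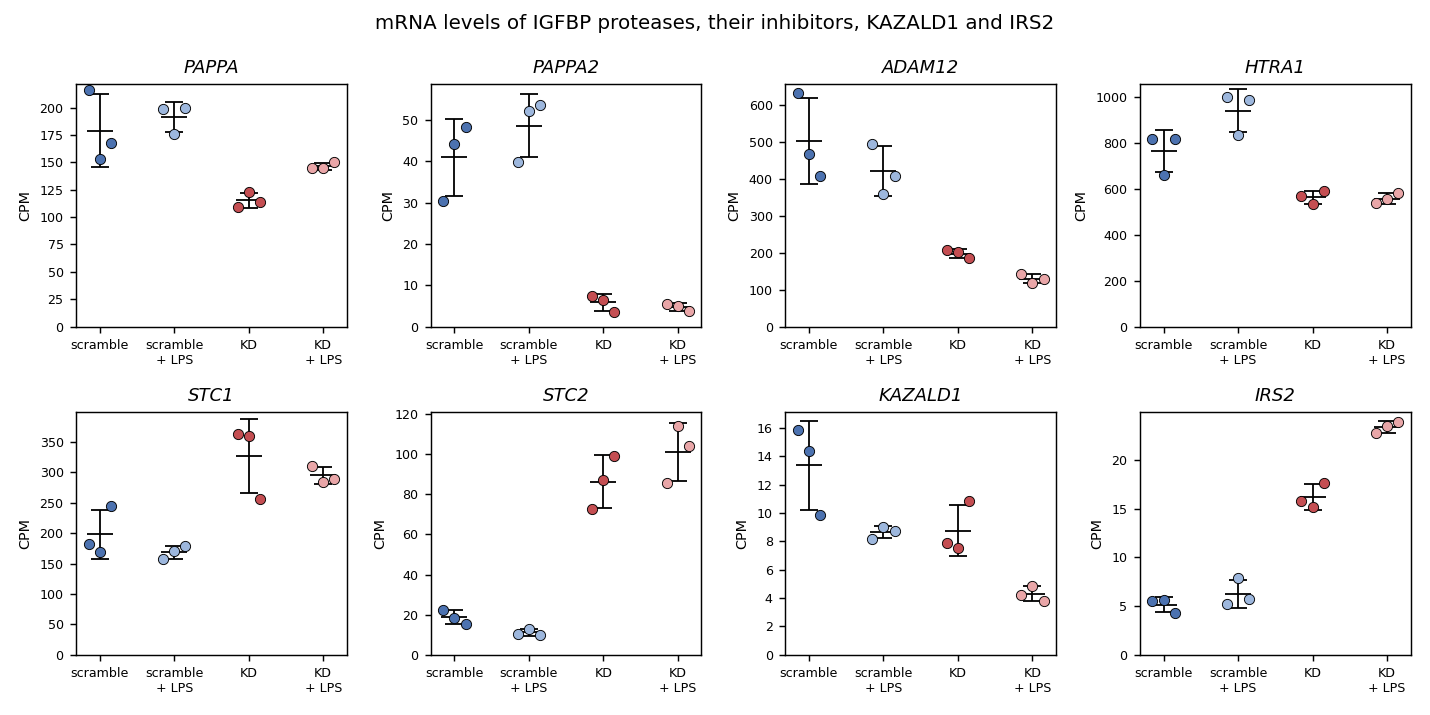
CPM of 6 genes that cut IGFBPs or inhibit that cutting, of *KAZALD1* and of the adaptor gene *IRS2* in each library (points), by group, with the mean and SD of 3 libraries. *PAPPA2* and *STC2* separate the KD and scramble groups without overlap, in opposite directions.

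LPS in scramble lowered *STC2* by 0.74 ± 0.16 on the log2 scale (adjusted p = 0.0079) and also *KAZALD1*, by 0.62 ± 0.17 (adjusted p = 0.034), the 2 called of 7. Of all genes, 5.9% were higher and 8.38% lower with LPS in scramble. The call of *KAZALD1* was lost in 5 of 6 fits that left out 1 library, all but the one without scramble replicate 3, with an adjusted p of up to 0.148. In KD, LPS raised *PAPPA* by 0.35 ± 0.08 (adjusted p = 0.0076) and lowered *ADAM12* by 0.61 ± 0.09 (adjusted p = 0.00023) and *KAZALD1* by 1.02 ± 0.21 (adjusted p = 0.0049), 3 of 7. Among all genes, 5.32% were higher and 6.03% lower with LPS in KD. The call of *PAPPA* was lost without KD replicate 1 (0.30, adjusted p = 0.0501). *STC2* was the only one of 7 with an interaction, 0.98 ± 0.20 (adjusted p = 0.021), against 0.943% of all genes higher and 0.332% lower. Leaving out 1 library gave 0.84 to 1.11 for *STC2*, with the call lost in 7 of 12 fits at an adjusted p of up to 0.066. Those fits left out scramble replicate 1 or 2, scramble with LPS replicate 1 or 3, KD replicate 1, or KD with LPS replicate 2 or 3.

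For IGF and insulin signaling, 21 genes were tested, among them the receptor genes *IGF2R* and *INSR*. KD raised 1 and lowered 6 without LPS, and raised 1 and lowered 9 with LPS, with medians of -0.19 and -0.22. Over all genes, 12.1% were higher and 15.1% lower without LPS, and 12.7% and 14.2% with LPS, with medians of 0.02 and 0.03. Leaving out 1 library ended the call of *SHC1* without LPS and of *GRB10* and *FOXO1* with LPS in at least 1 fit. The rising gene in both was *IRS2*, an adaptor of insulin and IGF receptors, at 5.51, 5.63 and 4.25 CPM in scramble and 15.7, 15.1 and 17.7 CPM in KD. Its log2 fold change was 1.66 ± 0.15 (adjusted p = 9.0e-06) and 1.91 ± 0.16 with LPS (adjusted p = 1.2e-06). *PIK3R1*, a regulatory subunit of PI3K, was at 147, 117 and 141 CPM in scramble and 61.3, 69.2 and 64.6 CPM in KD, with -1.05 ± 0.10 (adjusted p = 8.5e-06) and -0.84 ± 0.09 with LPS (adjusted p = 1.3e-05). *IGF2R*, the receptor that clears IGF-II, was at -0.52 ± 0.07 (adjusted p = 0.00016) and -0.37 ± 0.07 with LPS (adjusted p = 0.0018).

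LPS raised 4 of the 21 signaling genes in scramble and lowered 0, and raised 4 and lowered 1 in KD. Over all genes, 5.9% were higher and 8.38% lower in scramble, and 5.32% and 6.03% in KD. Of the called signaling genes, *IRS1* in scramble and *IRS2* in KD kept their calls whichever library was left out, and each of the others lost its call in at least 1 such fit. *IRS1*, the other main adaptor, was at 81.4, 71.8 and 74.8 CPM in scramble and 105, 118 and 104 CPM in scramble with LPS, an increase of 0.53 ± 0.08 (adjusted p = 0.0012). In KD, *IRS1* changed by 0.05 ± 0.08 with LPS (adjusted p = 0.80), and the interaction was -0.47 ± 0.12 (adjusted p = 0.057), outside the threshold. No signaling gene was called in the interaction.

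The IGF2 mRNA-binding proteins are RNA-binding proteins unrelated to the IGFBPs, and the study examined IGF2BP2 as a possible partner of linc-ADAIN. In the paper, IGF2BP2 was among the proteins pulled down with linc-ADAIN. Its RNA immunoprecipitation, however, recovered linc-ADAIN with the RNA-binding protein HuR and not with IGF2BP2. The paper also found HuR bound to IGF2BP2, and saw linc-ADAIN and IGF2BP2 in the same places near the nucleus. With KD it recovered more IL-8 and KLF5 mRNA on IGF2BP2, and it proposes IGF2BP2 as a likely mediator of their stability. By western blot the paper saw no change of IGF2BP2 protein with KD, whereas the values here are mRNA. *IGF2BP2* mRNA was at 205, 222 and 205 CPM in scramble and 141, 147 and 133 CPM in KD, a log2 fold change of -0.58 ± 0.08 (adjusted p = 0.00013), and -0.40 ± 0.08 with LPS (adjusted p = 0.0011). LPS in scramble gave -0.37 ± 0.07 (adjusted p = 0.0054). *IGF2BP3* rose with KD without LPS by 0.35 ± 0.09 (adjusted p = 0.0097), and *IGF2BP1* passed the test in none of the 5 comparisons.

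Genes with the pattern most like a member's were sought for the 3 members of widest range over the 4 groups, by Pearson's r of log2 CPM over 12 libraries among 11810 genes. These points share the 4 groups, so r mostly describes differences between groups. *IGFBP2* was nearest to *FADS2* (r = 0.99), *NRN1* (r = 0.97) and *LAMB1* (r = 0.97). *IGFBP6* was nearest to *WNT2* (r = 0.99), *LGALS3BP* (r = 0.98) and *POR* (r = 0.98), and *IGF1* to *ZNF493*, *FZD4* and *PHIP* (each r = 0.92).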

How the data were processed

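Reads were pseudoaligned by the authors with kallisto 0.44.0 to an index of human transcriptomes (GRCh38), and the deposited values are estimated counts per gene name, not normalized for library size or length. The annotation release and the step from transcripts to genes are not given in the sources used here. A row without a name held 0.235% to 0.306% of the counts and was left out.

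Counts were rounded in R 4.3.3. Genes whose counts reached at least 10 when summed across a fit's libraries were tested with edgeR 4.0.16 (TMM scaling, quasi-likelihood F test, Benjamini-Hochberg adjustment over all genes tested). The study used DESeq2, and DESeq2 1.42.0 was an alternative. SE is the size of the log2 fold change divided by the square root of F. KD against scramble without and with LPS, and LPS in each shRNA group, used 6 libraries each. KD comparisons and LPS comparisons share libraries. Gene positions and lengths come from GENCODE release 44. Intervals cover the spread between libraries only, and a floor of 3 counts covers counting error only.

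All members were named. Of the other lists, at most 6 genes per comparison, those with the smallest adjusted p, were given values, and 1 gene of the signaling list is not reported here by name. The members and lists were chosen with earlier results of these data known. Steps were tested on simulated data with 1 fixed spread, where only well-counted genes changed, by more than most values reported here. That test does not cover small changes or low counts. Alternatives were other scalings, other filters, a fit of all 12 libraries, a block on replicate number, DESeq2 and leaving out each library. Libraries of a group differed beyond sampling noise, and same-numbered libraries did not deviate together (r -0.045 to 0.062), so the numbers were not taken as pairs.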

Additional observations from a re-analysis of the deposited data

Results flagged for a closer look

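The response of *IGF1* to LPS differed between KD and scramble by a test of the difference itself, with a log2 value of -0.90 (adjusted p = 0.035 from edgeR's interaction test). LPS moved *IGF1* upward in scramble and by 0.13 on the log2 scale in KD. The value kept its sign in all 12 fits that left out 1 library and lost its call in 8 of them. *STC2* also differed, with 0.98 (adjusted p = 0.021). Its log2 value with LPS was -0.74 in scramble and 0.23 in KD, and the call was lost in 7 of 12 such fits. Groups of 3 libraries are too small for a test of single outlying libraries.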

How the results depend on the processing

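The number of members called ranged from 4 to 7 without LPS and 6 to 8 with LPS for KD, and from 2 to 3 for LPS in scramble, when 1 library was left out. For LPS in KD it was 1 to 2, and for the interaction 0 to 1. With edgeR's filterByExpr the interaction called 0 members, with *IGF1* at -0.90 (adjusted p = 0.051). *IGFBP2*, *IGFBP4*, *IGFBP5* and *IGFBP6* kept their direction and call in both KD comparisons under each alternative run. Scaling by library size alone turned the sign of *IGF1R* in KD without LPS (0.0566) and of *IGFBP2* (-0.0293) and *IGFBP4* (-0.0114) for LPS in KD, none of them called. Leaving out 1 library gave ranges that crossed 0 for *IGF1R* in KD without LPS (-0.32 to 0.20), for LPS in scramble in *IGF2* (-0.0544 to 0.24), *IGFBP5* (-0.35 to 0.0812) and *IGFBP6* (-0.11 to 0.0573), for LPS in KD in *IGFBP2* (-0.11 to 0.18), *IGFBP4* (-0.0115 to 0.12) and *IGF1R* (-0.0940 to 0.68), and for the interaction in *IGFBP3* (-0.0689 to 0.14), *IGFBP4* (-0.39 to 0.0201) and *IGFBP5* (-0.37 to 0.0657), none of them called. The cause was not tested.

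Without a filter *IGFBP2* passed for LPS in scramble (0.80, adjusted p = 0.022), and *IGFBP5* passed for LPS in KD under 4 alternatives (adjusted p = 0.022 to 0.048). Over all genes, the interaction called 219, against 475 by DESeq2 and 431 without a filter. With merged exon length, *IGFBP6* was at 41.5 and *IGFBP3* at 35.7 CPM per kb in scramble, and 8 of 10 members kept their rank. With the replicate number as a block, *IGFBP7* in KD without LPS (0.37, adjusted p = 0.064) and *IGF2* in KD with LPS (0.66, adjusted p = 0.051) lost their calls, as did *KAZALD1* in KD without LPS (-0.60, adjusted p = 0.073), *IGFBP2* passed for LPS in scramble (0.95, adjusted p = 0.0024), and the count over all genes for KD without LPS went from 4411 to 3857. Of the 18 pairs of same-numbered libraries, 0 had a correlation of deviations above 0.1, so the block describes a shared number only. *IGF1R* and *IGF2* had at most 226 and 393 counts in a library.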
